A study of Mus musculus with 5 samples.

Results

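The genes Olig1, Olig2, Olig3, Neurog1, Neurog2, Neurog3, Atoh1, Neurod1 and Bhlhe22 encode transcription factors of the basic helix-loop-helix (bHLH) family. They were chosen on the H3K27me3 peaks that the present libraries gave at their loci, and they are 9 of the 21911 protein-coding genes in GENCODE release M21. A peak was assigned to a gene when it touched the gene body or the 5 kb on either side. Since these peaks were used in the choice, the counts and coverage of the 9 genes are a description and carry no test.

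H3K27me3 was mapped by chromatin immunoprecipitation and sequencing (ChIP-seq) in molars of wildtype C57BL/6 mice at postnatal day 3, of which the mesenchyme was kept and the epithelium discarded. The study's methods, in contrast, give a mixed background for its mice and name no strain for the ChIP-seq animals. The 5 libraries were 2 with the H3K27me3 antibody, 2 inputs of chromatin that met no antibody and 1 with nonspecific IgG. They all shared genotype, strain and age as labelled, with no mutant among them. Whether the 2 H3K27me3 libraries came from different animals or from pooled molars is not stated, so each SD below is the spread of 2 libraries and may be technical. The authors called 3 peak lists, with 22757 peaks for replicate 1 against input, 24881 for replicate 1 against IgG and 33379 for replicate 2 against its own input.

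Replicate 2 was the deeper library, with 49947919 H3K27me3 tags kept against 30369351 in replicate 1, and the weakest peaks rested on 6 and 4 tags, respectively. Its tags were also longer, at 74 bp against 49 bp, so depth, tag length and replicate cannot be told apart.

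bHLH factors bind short E-box sequences as dimers, usually with a ubiquitous E protein as partner, while Id proteins block such dimers and Hes and Hey proteins repress proneural genes downstream of Notch. Olig1 and Olig2 direct the oligodendrocyte lineage and, for Olig2, motor neurons, whereas neurogenins and Atoh1 start neuronal or sensory cell fates and Neurod1 acts later in differentiation. H3K27me3 is the histone mark of Polycomb repressive complex 2, whose methyltransferase subunits include Ezh2, and it is often found at CpG-rich genes of developmental regulators in lineages that do not use them. These libraries give the mark alone, with no RNA measured.

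Both replicates, each called against input, shared 11 segments at these genes, and 6 of them are printed here because they are the bases on which the replicates overlapped. Sequences are from GRCm38, read 5′ to 3′ on the strand of the gene, with CpG dinucleotides in capitals. Positions count from the 5′ end of the gene, upstream bases being negative. The Olig1 segment is chr16:91265619-91265914 (plus strand), at positions -4153 to -3858. The first Olig2 segment is chr16:91224398-91224600 (plus strand), at -1059 to -857, and the second is chr16:91227188-91227225 (plus strand), at 1731 to 1768 in the coding sequence. The Olig3 segment is chr10:19351619-19351664 (plus strand), at -4914 to -4869. At Neurog2 the segment spanned positions 276 to 405, and its intronic part, chr3:127633458-127633540 (plus strand), is shown. At Neurod1 it spanned positions 1530 to 1949, and its part in the coding sequence, chr2:79454802-79455037 (minus strand), is shown.
Olig1 upstream: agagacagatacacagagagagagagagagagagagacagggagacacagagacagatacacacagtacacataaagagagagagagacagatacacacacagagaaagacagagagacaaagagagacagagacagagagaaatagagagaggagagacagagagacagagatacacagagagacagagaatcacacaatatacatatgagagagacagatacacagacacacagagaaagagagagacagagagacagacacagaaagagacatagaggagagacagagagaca
Olig2 upstream: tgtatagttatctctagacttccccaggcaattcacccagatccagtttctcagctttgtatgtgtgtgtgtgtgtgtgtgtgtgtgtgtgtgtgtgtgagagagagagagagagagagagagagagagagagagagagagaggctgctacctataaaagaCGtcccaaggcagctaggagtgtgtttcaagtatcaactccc
Olig2 coding: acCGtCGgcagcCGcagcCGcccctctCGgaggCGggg
Olig3 upstream: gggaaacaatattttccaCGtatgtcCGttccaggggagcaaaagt
Neurog2 intron: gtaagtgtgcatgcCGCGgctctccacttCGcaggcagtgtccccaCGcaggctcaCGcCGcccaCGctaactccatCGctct
Neurod1 coding: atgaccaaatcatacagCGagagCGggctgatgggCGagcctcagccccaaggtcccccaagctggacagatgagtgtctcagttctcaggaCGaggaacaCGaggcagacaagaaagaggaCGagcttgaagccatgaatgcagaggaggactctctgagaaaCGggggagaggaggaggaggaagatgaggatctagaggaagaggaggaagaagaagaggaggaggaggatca

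The upstream segments of Olig1 and Olig2 held runs of short repeats and few CpG dinucleotides. In the Olig1 upstream segment 34 of the 296 bases lay in perfect dinucleotide repeats of at least 6 units, 80.7% of the bases were purines, and it held 0 CpG. In the Olig2 upstream segment 82 of the 203 bases lay in such repeats, and it held 1 CpG. All 296 bases of the Olig1 upstream segment were masked as repeats in the genome sequence, and 99 of the 203 at Olig2. The Olig2 coding segment held 6 CpG in 38 bases, the intronic part at Neurog2 8 in 83 and the coding part at Neurod1 7 in 236. The other 5 shared segments lay at -3212 to -3086 of Olig1, 5410 to 5486 of Olig2, 2355 to 2397 of Olig3, 5167 to 5490 of Neurog2 and 1565 to 1592 of Neurog3.

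Peaks were found at all 9 genes in replicate 1 and at 8 in replicate 2, where Bhlhe22 had none. Against input, replicate 1 gave 48 peaks at the 9 genes and replicate 2 gave 33, and replicate 1 against IgG gave 63. The peaks covered 7.93%, 9.76% and 11.3% of the gene bodies and flanks, respectively, compared with 0.113%, 0.245% and 0.126% of the genome. Among all protein-coding genes, 25.0% had a peak in replicate 1 against input, 35.8% in replicate 2, 25.9% against IgG and 15.7% in both replicates. The corresponding numbers here, 9, 8, 9 and 8 of 9, follow from how the genes were chosen. When peaks with a fold enrichment of 3 or higher were kept alone, 0 of the 9 genes had a peak in both replicates. Replicate 2 had 0 such peaks here, and the count is given without the share over all protein-coding genes. In bulk tissue, a mark carried by few cells and a weak mark in all cells cannot be told apart.

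**Figure D1:**
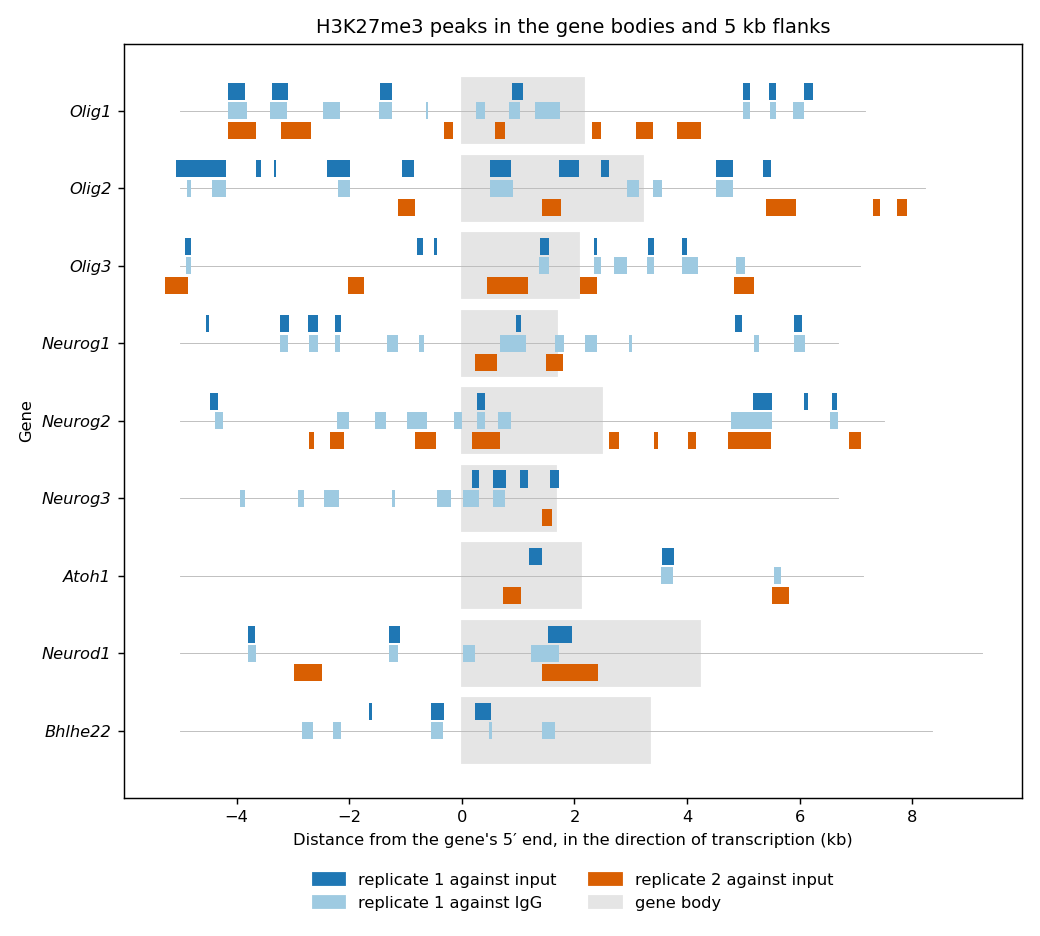
H3K27me3 peaks at the 9 genes, by distance in kb from the 5′ end of each gene (horizontal axis) and by gene (vertical axis). Bars are peaks of replicate 1 against input, replicate 1 against IgG and replicate 2 against input, and grey marks the gene body. Bhlhe22 has 3, 5 and 0 peaks in these lists, and Olig2 has 10, 7 and 5.

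Within 1 kb on either side of the 5′ end, here called the promoter, 7 genes had a peak in replicate 1 against input. In replicate 2 it was 6, and against IgG 7. Over all protein-coding genes, these lists had such a peak at 3.88%, 4.16% and 4.53%. In both replicates such a peak was present at 5 genes, namely Olig1, Olig2, Olig3, Neurog1 and Neurog2, compared with 1.04% of all genes. Atoh1 had a promoter peak in replicate 2 alone, and Neurog3 and Bhlhe22 in replicate 1 alone. This window reaches into the gene, so a promoter peak can lie in the gene body. In replicate 1 against input, Olig1, Neurog1, Neurog2 and Neurog3 had their promoter peaks in the gene body alone. In replicate 2 this held for Olig3, Neurog1 and Atoh1, in coding sequence. Neurod1 had none in the input-called lists and 1 against IgG.

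Among the Olig genes, mean coverage was highest at Olig2, a regulator of motor neuron and oligodendrocyte precursors (ENSMUSG00000039830.9, GRCm38 chr16:91225457-91228677). Peaks covered 21.8% of its body and flanks in replicate 1 against input, 12.2% in its IgG-called list and 11.1% in replicate 2. The mean of the replicates against input was 16.5% ± 7.58 (SD, n = 2), rank 5 of 21911 genes. In the single lists Olig2 ranked 5, 75 and 53, respectively, and Olig1 had more coverage in the IgG-called list and in replicate 2. At Olig2 replicate 1 was thus the higher library, and a change of control moved its value almost to that of replicate 2. The 10 input-called peaks of replicate 1 included 1 of 903 bases at -5084 to -4182. The strongest peak of replicate 1 against input had a fold enrichment of 2.99 and lay in the intron, at 496 to 881. Against IgG the highest value was 3.18, at -4432 to -4189, and in replicate 2 it was 2.50, at 5410 to 5934.

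Olig1, which acts in oligodendrocyte maturation, lies 41.1 kb from Olig2 on the same strand (ENSMUSG00000046160.6, chr16:91269772-91271933). Its coverage was 11.5% in replicate 1 against input, 20.1% in its IgG-called list and 18.4% in replicate 2, and the replicates averaged 15.0% ± 4.87 (SD, n = 2), rank 13. Here replicate 1 was lower than replicate 2, the reverse of Olig2. The strongest peak against input lay upstream in both replicates, with a fold enrichment of 2.96 at -4153 to -3858 and of 2.80 at -4155 to -3664, and these peaks hold the purine-rich segment printed above. All 7 replicate 1 peaks against input were also found against IgG. In the gene itself, replicate 2 had 1 peak in the coding sequence, at 597 to 762, and replicate 1 had 1 peak at 894 to 1085.

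Between the bodies of Olig2 and Olig1, peaks covered 9.19% of the bases in replicate 1 against input, 13.6% in its IgG-called list and 6.72% in replicate 2. The flanks of the genes carried most of this in replicate 2. In the middle 31.1 kb, beyond 5 kb from either gene, replicate 1 had 13 peaks (8.16% covered) against input and 21 (12.5%) against IgG, while replicate 2 had 3 (2.46%). When peaks up to 10 kb apart were joined, Olig2 and Olig1 fell into a single stretch of 131 kb in replicate 1 against input and of 98.6 kb against IgG. In replicate 2 the genes stayed apart, in stretches of 30.6 kb and 14.9 kb.

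Olig3, which specifies dorsal neurons of the hindbrain and spinal cord, had less coverage than the other Olig genes in replicate 1 (ENSMUSG00000045591.6, chr10:19356533-19358604). It was covered over 5.69% in replicate 1 against input, 9.72% in its IgG-called list and 14.8% in replicate 2, and the mean of the input-called values was 10.2% ± 6.43 (SD, n = 2), rank 61. The deeper library gave the higher value. Its single peak in the coding sequence was a replicate 2 peak of 718 bases, at 453 to 1170, that lay wholly in a CpG island. The highest fold enrichment was 3.27 in replicate 1 against input, at -500 to -439, then 3.09 against IgG, at 1374 to 1548, and 2.69 in replicate 2, at 2101 to 2397.

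Of the neurogenins, the determination factors of neuronal precursors, Neurog2 had the highest coverage (ENSMUSG00000027967.8, chr3:127633135-127635631). The values were 6.19% in replicate 1 against input, 18.1% in its IgG-called list and 20.4% in replicate 2, and the mean of the input-called values was 13.3% ± 10.1 (SD, n = 2), rank 25. The SD was the largest among the 9 genes, and the low value belonged to replicate 1 against input. At 276 to 405, across the first exon and the intron, lay the peak with the highest fold enrichment of all 48 input-called peaks of replicate 1, at 3.82, and the same interval was called against IgG, at 3.42. In replicate 2 a peak at 184 to 681 covered it with a fold enrichment of 2.40, and the strongest peak there was 2.82, at 3406 to 3476. All 71 bases of that strongest peak were masked as repeats. A further segment downstream, at 5167 to 5490, was called in all 3 lists.

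Neurog1, which specifies sensory neurons of cranial and spinal ganglia (ENSMUSG00000048904.5, chr13:56250478-56252163, minus strand), differed little between the replicates in coverage. It was covered over 7.12% in replicate 1 against input and 6.06% in replicate 2, which average 6.59% ± 0.75 (SD, n = 2), rank 145, although the IgG-called value was 15.9%. Replicate 1 reached its value with 7 peaks and replicate 2 with 2, and none overlapped between them. The strongest peaks were at 963 to 1053 in replicate 1 against input (fold enrichment 3.11), at 5195 to 5276 against IgG (3.15) and at 225 to 630 in replicate 2 (2.79). The last of these lay in the coding sequence.

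Neurog3, which starts the endocrine lineage of the pancreas and gut (ENSMUSG00000044312.4, chr10:62133090-62134763), had 4 peaks in replicate 1 against input, 7 in its IgG-called list and 1 in replicate 2. Coverage was 5.54%, 10.9% and 1.47%, and the mean of the input-called replicates was 3.51% ± 2.88 (SD, n = 2), rank 250. All 4 input-called peaks of replicate 1 lay within or across the end of the gene, and the strongest, at 1031 to 1183, had a fold enrichment of 3.42. The highest values were 2.87 against IgG, at 20 to 299, and 2.43 in replicate 2, at 1421 to 1592. The gene Fam241b overlaps this locus, so peaks in the gene body can belong to either gene.

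Atoh1, the determination factor of inner ear hair cells and cerebellar granule neurons (ENSMUSG00000073043.5, chr6:64729125-64731245), had 2 peaks in each list. It was covered over 3.67% in replicate 1 against input, 2.71% in its IgG-called list and 5.14% in replicate 2, and the mean of the input-called values was 4.41% ± 1.04 (SD, n = 2), rank 199. Both replicates had a peak in the coding sequence, at 1197 to 1429 (fold enrichment 2.61, the highest for replicate 1 against input) and at 723 to 1042, and these did not overlap. Downstream, the strongest peak against IgG (2.67, at 5539 to 5665) lay within the strongest of replicate 2 (3.00 after rounding, at 5503 to 5805), which touched a CpG island.

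Neurod1, which acts in the differentiation of neurons and of pancreatic endocrine cells (ENSMUSG00000034701.9, chr2:79452521-79456751, minus strand), was covered over 5.09% in replicate 1 against input, 7.06% in its IgG-called list and 10.4% in replicate 2. The mean of the input-called values was 7.73% ± 3.74 (SD, n = 2), rank 118. A peak of 420 bases in replicate 1 lay wholly within one of 985 bases in replicate 2, at 1431 to 2415 (fold enrichment 2.70, the highest of that library here). This was the longest segment that the input-called replicates shared at any of the 9 genes, although Neurog2 had one of 702 bases with IgG as control. It took in the start of the coding sequence. The highest fold enrichment was 2.90 in replicate 1 against input, at -3798 to -3680, and 3.39 against IgG, at 25 to 224. Cerkl overlaps the locus, so a peak there can belong to either gene.

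Bhlhe22, a relative of the Olig genes that acts in neurons of the retina, cortex and spinal cord (ENSMUSG00000025128.7, chr3:18054174-18057517), was covered in replicate 1 alone. The values were 4.25% against input, 6.26% against IgG and 0% in replicate 2. The mean of the input-called values was 2.12% ± 3.00 (SD, n = 2), rank 426. The peak with the highest fold enrichment lay at -1644 to -1592 against input (3.19) and at 1421 to 1656 against IgG (2.93). The nearest replicate 2 peak was 39321 bp from its 5′ end.

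**Figure D2:**
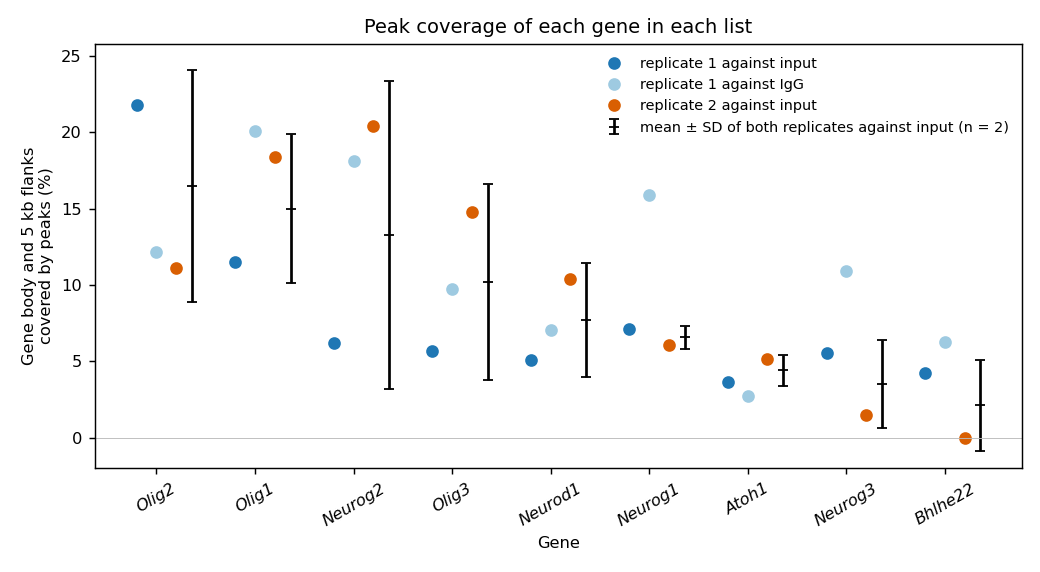
Share of the gene body and 5 kb flanks covered by peaks (vertical axis, %) for each gene (horizontal axis, in order of the mean). Points are the 3 lists, and the black bars are the mean ± SD of the replicates called against input (n = 2). The replicates lie far apart at Neurog2, at 6.19% and 20.4%, and close together at Neurog1, at 7.12% and 6.06%.

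In order of mean coverage the genes ran Olig2, Olig1, Neurog2, Olig3, Neurod1, Neurog1, Atoh1, Neurog3 and Bhlhe22. Of the 8 pairs of neighbours in this order, only Neurog1 and Atoh1 differed by more than the larger of their SDs, with a difference of 2.18 percentage points against 1.04. Coverage was higher in replicate 2 at 5 genes and in replicate 1 at 4. The covered bases at the 9 genes were 1.23 times as many in replicate 2 as in replicate 1, while over the genome they were 2.16 times as many.

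The choice of control also moved coverage. For the same replicate 1 library, coverage was higher against IgG than against input at 7 genes and lower at 2, Olig2 and Atoh1. At Olig1, Neurog1 and Neurog3 the difference between controls was larger than that between replicates, so at 3 of the 9 genes. Over the 9 genes the IgG-called peaks covered 1.43 times as many bases as the input-called peaks, and over the genome 1.11 times. Of the 48 input-called peaks 33 (68.8%) overlapped an IgG-called peak, compared with 51.0% of all input-called peaks.

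Most peaks of the 9 genes did not overlap between the replicates. Of the 48 replicate 1 peaks against input, 11 overlapped a replicate 2 peak (22.9%, 95% Wilson interval 13.3 to 36.5), compared with 2.85% of all peaks in that list. In replicate 2 it was 11 of 33 (33.3%, 19.8 to 50.4) against 1.90%, and in the IgG-called list 13 of 63 (20.6%, 12.5 to 32.2) against 3.32%. These intervals cover counting error only, and the genes were picked on the peaks, so the gap between these shares was not tested. The overlapping replicate 1 peaks numbered 3 at Olig2, 2 each at Olig1, Olig3 and Neurog2, and 1 each at Neurog3 and Neurod1. Neurog1, Atoh1 and Bhlhe22 had 0. With IgG as control, the count at Olig2 was 0 of 7 peaks, so its 3 shared segments were absent from that list, and at Neurog3 it was 0 in place of 1. The count was 5 in place of 2 at Neurog2, 3 in place of 2 at Olig3 and 1 in place of 0 at Neurog1 and at Atoh1, and was the same at Olig1, Neurod1 and Bhlhe22. Of the 37 replicate 1 peaks against input that did not overlap replicate 2, 20 (54.1%) had a replicate 2 peak within 1 kb, compared with 10.1% of all such peaks in that list, and their median gap was 939 bp. It was 24 of 50 (48.0%, compared with 10.7%) in the IgG-called list and 12 of 22 (54.5%, compared with 5.67%) in replicate 2.

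Repeats were present at part of the overlapping peaks. Short tandem repeats, with a unit of 1 or 2 bases over at least 12 bases, occurred in 4 of 48 replicate 1 peaks (8.33%, compared with 3.95% of all peaks) and in 5 of 33 replicate 2 peaks (15.2%, compared with 4.78%). In the IgG-called list it was 3 of 63 (4.76%, compared with 3.91%). Of the 9 peaks called against input 3 were at Olig1, 3 at Olig2, 2 at Olig3 and 1 at Neurog2. Bases masked as repeats made up 19.3% of the peak bases in replicate 1 against input, 13.4% in its IgG-called list and 15.5% in replicate 2, and 16.0% of all bases in the gene bodies and flanks. Without the peaks holding a tandem repeat, 9 replicate 1 peaks still overlapped a replicate 2 peak. Whether repeats had a part in the overlaps was not tested.

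The peaks of single genes were short and weak, as in the lists as a whole. Their median length was 152 bp in replicate 1 against input, 196 bp against IgG and 303 bp in replicate 2, compared with 119, 120 and 181 bp over all peaks. The median fold enrichment was 2.78, 2.75 and 2.47 against 2.63, 2.66 and 2.45. A fold enrichment of 3 or higher was reached by 6, 9 and 0 of these peaks. The share over all peaks is not given, so whether these counts stand out in their lists cannot be told. The highest values were 3.82, 3.42 and 3.00 (after rounding), against 4.48, 4.87 and 7.58 over all peaks. At the lowest pileup of their list sat 22.9%, 11.1% and 24.2% of these peaks, compared with 44.5%, 35.1% and 37.9% of all peaks.

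Several short peaks in a row were found at the Olig genes and Neurog2. When peaks up to 5 kb apart were joined, Olig1, Olig2, Olig3 and Neurog2 lay in a stretch of at least 10 kb in both replicates, as did 0.402% of all protein-coding genes. At Olig1 the stretches were 23.7 kb in replicate 1 and 14.9 kb in replicate 2. They were 13.6 and 13.5 kb at Olig2, 13.4 and 13.8 kb at Olig3, and 14.6 and 14.3 kb at Neurog2. Neurog1 had 18.1 kb in replicate 1 but 1.57 kb in replicate 2. Joined at 5 kb, no gene beyond those overlapping the locus was reached by a stretch at any of the 9 genes. Without the peaks that hold a tandem repeat, Olig1 and Neurog2 kept stretches of at least 10 kb in both replicates, while Olig2 fell to 6.01 kb in replicate 2 and Olig3 to 9.97 kb in replicate 1.

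Coverage was highest in the gene bodies and fell up to 20 kb from them. The genes were chosen on peaks in the bodies and 5 kb flanks, so the step beyond 5 kb follows in part from the choice. In the bodies of the 9 genes it was 13.1% in replicate 1 against input, 17.1% in its IgG-called list and 16.5% in replicate 2. Within 5 kb it was 6.60%, 9.84% and 8.02%, and from 5 to 10 kb it was 3.48%, 6.59% and 2.57%. Because Olig1 and Olig2 lie in each other's surroundings, the other 7 genes were also taken alone. From 10 to 20 kb these had 0.478%, 1.04% and 0.216%, and all protein-coding genes had 0.169%, 0.196% and 0.272%. At that distance the 7 genes were thus below all genes in replicate 2 and above them in replicate 1.

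**Figure D3:**
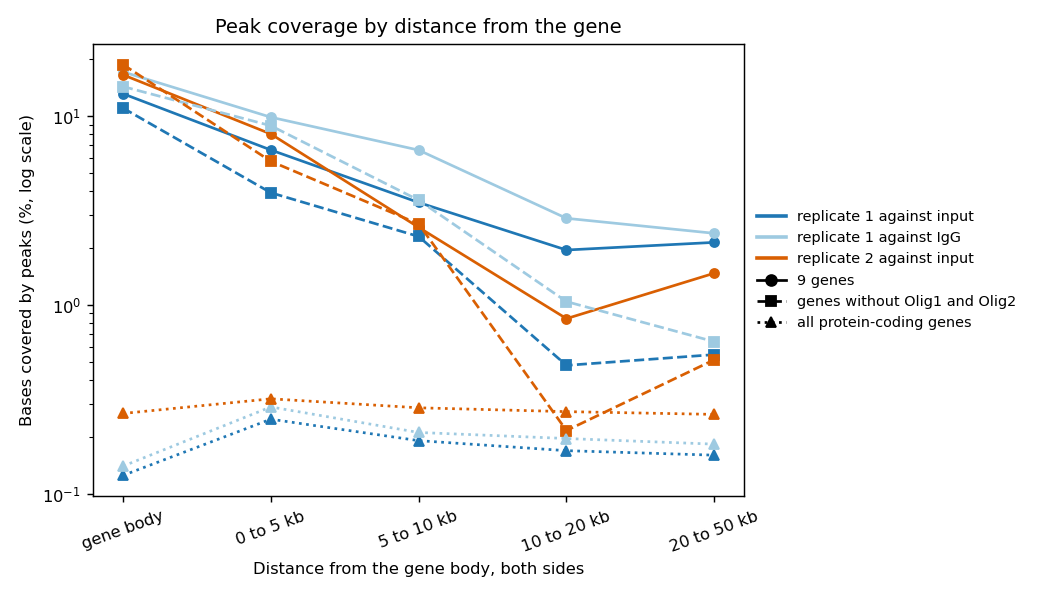
Bases covered by peaks (vertical axis, %, log scale) in the gene body and at rising distance from it on both sides (horizontal axis). Lines show the 9 genes, the 7 genes without Olig1 and Olig2, and all protein-coding genes, in each list. The 9 genes fall from 13.1% to 17.1% in the body to between 0.845% and 2.87% at 10 to 20 kb. They were chosen on peaks in the body and within 5 kb of it.

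Peaks fell in all parts of the loci. In replicate 2, 7 of 33 peaks touched coding sequence, 1 in each of 7 genes, and in replicate 1 it was 4 of 48 peaks. A further 9 replicate 1 peaks and 2 replicate 2 peaks touched an exon outside coding sequence, and 1 and 0 lay in an intron. Upstream flanks held 20 and 10 peaks and downstream flanks 14 and 14. By bases, upstream flanks were covered over 8.58% and downstream flanks over 4.63% in replicate 1, and over 6.82% and 9.23% in replicate 2, so the sides changed order between the replicates.

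The loci of the 9 genes are rich in CpG islands. The genes were chosen on peaks, and peak bases in all 3 lists lay in islands more often than bases of the genome. This richness is therefore not independent of the choice. Computed islands (windows of 200 bp with over 50% GC and a CpG ratio over 0.6) took up 26.0% of the gene bodies and flanks, compared with 2.51% of the genome. The share ran from 14.7% at Neurog1 to 48.1% at Olig2. An island was touched by 15 of 48 replicate 1 peaks (31.2%, 95% Wilson interval 19.9 to 45.3), 24 of 63 IgG-called peaks (38.1%, 27.1 to 50.4) and 14 of 33 replicate 2 peaks (42.4%, 27.2 to 59.2). Over all peaks of these lists it was 9.19%, 10.3% and 6.20%. The intervals cover counting error only and take peaks that cluster at 9 loci as independent.

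**Figure D4:**
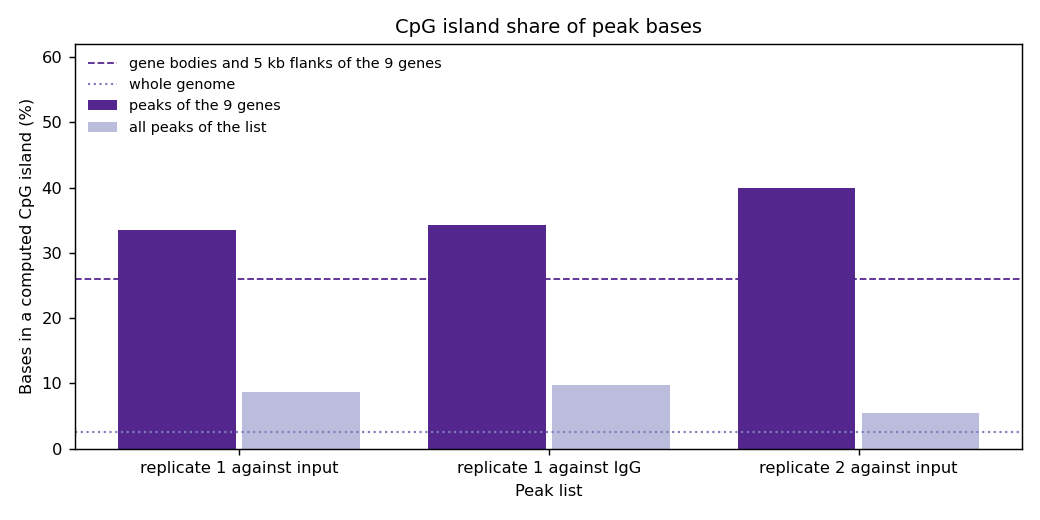
Share of peak bases that lie in a computed CpG island (vertical axis, %) for the peaks of the 9 genes and for all peaks of each list (horizontal axis). Lines mark the share of all bases in the gene bodies and flanks of the 9 genes, 26.0%, and in the genome, 2.51%. Peaks of the 9 genes are at 33.5%, 34.2% and 40.0%.

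In the flanks, the island share of peak bases was close to that of the flanks as a whole, and in the gene bodies it was close to it in replicate 1 against input and above it in the other lists. In the gene bodies 62.4% of all bases were in islands, and so were 64.8% of the peak bases in replicate 1 against input, 72.3% in its IgG-called list and 81.6% in replicate 2. In the flanks it was 16.6% of all bases and 17.5%, 15.6% and 18.0% of the peak bases. All 7 replicate 2 peaks in coding sequence and all 4 of replicate 1 against input touched an island, and 6 of 7 did in the IgG-called list.

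Among other bHLH genes, both neural ones and mesodermal or mesenchymal ones had coverage in the same range at a few loci. Of 12 further neural bHLH genes 5 had a peak in both replicates, compared with 15.7% of all protein-coding genes. None in any list was found at 4 of them, as at 11177 of all 21911. The median of their mean coverage was 0.858%, compared with 7.73% for the 9 genes and 0% over all protein-coding genes. Neurod2, a neuronal differentiation factor, had 19.7% in replicate 1 against input, 25.8% in its IgG-called list and 12.5% in replicate 2. The mean of its input-called values was 16.1% ± 5.11 (SD, n = 2). Ptf1a, which acts in pancreas and cerebellum, had a mean of 10.1% ± 3.45, Bhlhe23 4.03% ± 0.169 and Nhlh2 2.74% ± 1.09 (SD, n = 2 each). Of 11 mesodermal and mesenchymal bHLH genes 7 had a peak in both replicates, with a median of 2.04%. Hand1, a factor of heart and jaw development, had 8.57% ± 4.05, Tcf21 6.25% ± 4.16, Hand2 5.73% ± 1.92 and Msc 3.48% ± 0.615 (SD, n = 2 each).

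Partners, inhibitors and upstream regulators of the bHLH proteins had low coverage in most cases, as did protein-coding genes in general. Of all 21911, 11177 had no peak in any list and 15.7% had one in both replicates. The 4 Id genes had 0 peaks in any list. Of the 3 E protein genes only Tcf12 had a peak in both replicates, with 0.082% ± 0.0299 (SD, n = 2). Among 10 Hes and Hey genes 3 had one in both, namely Helt with 9.81% ± 11.7, Hes5 with 5.54% ± 5.73 and Hes3 with 3.81% ± 1.90 (SD, n = 2 each). Helt and Hes5 differed widely between the replicates, with 18.1% in replicate 1 against input and 1.50% in replicate 2 at Helt, and 1.49% and 9.59% at Hes5. Among 9 Notch ligand and receptor genes 3 had a peak in both replicates, namely Dll3 with 2.47% ± 0.901, Jag1 with 0.287% ± 0.061 and Notch2 with 0.185% ± 0.0472 (SD, n = 2 each). The means of Helt, Hes5, Hes3 and Dll3 lay within the range of the 9 Olig and proneural genes. Of 11 neuronal and oligodendrocyte genes, which bHLH factors act upstream of, 6 had a peak in both replicates, compared with 15.7% of all protein-coding genes. The median coverage over the 11 was 0.293%. Among these 6, Insm1 had the highest mean, 5.09% ± 6.43, from 9.64% in replicate 1 against input and 0.542% in replicate 2. It was followed by Rbfox3 with 0.546% ± 0.0346, Elavl3 with 0.44% ± 0.015 and Elavl4 with 0.357% ± 0.283 (SD, n = 2 each). Coverage is a share of the window, and the windows of these lists differed in length. The median was 79.0 kb for the neuronal and oligodendrocyte genes, 12.2 kb for the 9 genes and 27.4 kb for all protein-coding genes. A longer window has more room for a peak, so 6 of 11 and 15.7% do not compare windows of like length.

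**Figure D5:**
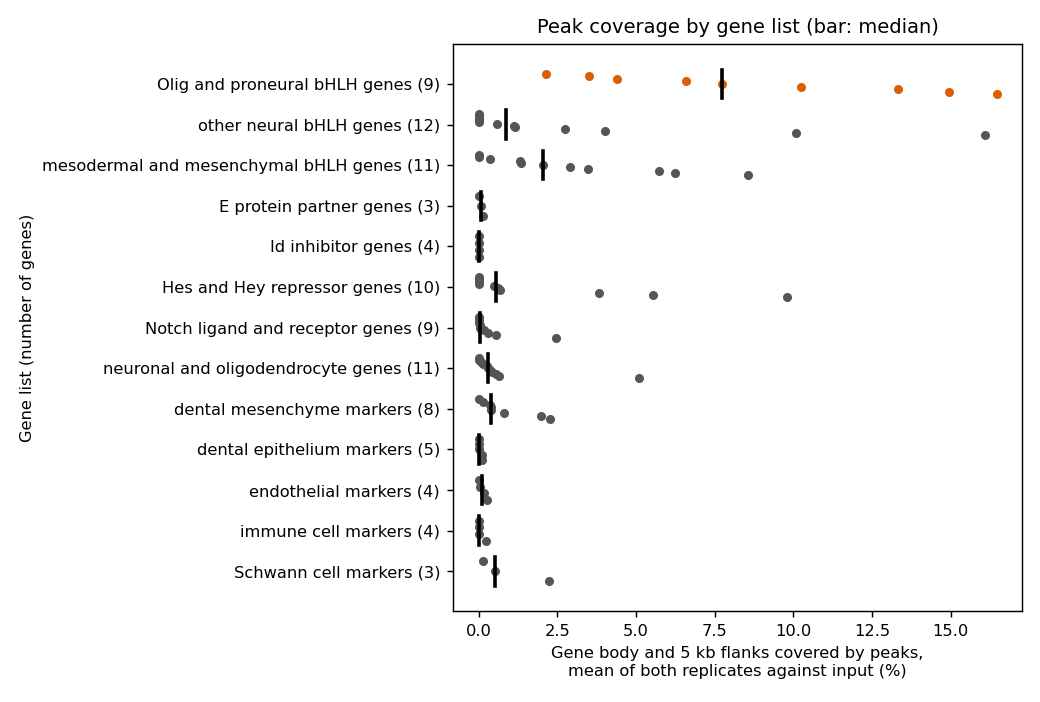
Mean share of the gene body and 5 kb flanks covered by peaks in the replicates called against input (horizontal axis, %) for each gene of 13 lists (vertical axis, number of genes in parentheses). Each point is a gene and each black bar a median. The 9 Olig and proneural genes run from 2.12% to 16.5% with a median of 7.73%, and the 4 Id genes are at 0%.

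Markers of the cell types that the tissue could hold were also read as peaks, since these libraries give no expression level by which the labelled mesenchyme could be checked. A peak in both replicates was present at 5 of 8 dental mesenchyme markers, compared with 15.7% of all protein-coding genes, with 2.26% ± 2.10 at Barx1, 1.98% ± 0.467 at Pax9, 0.795% ± 0.516 at Lhx6 and 0.365% ± 0.224 at Lhx8 (SD, n = 2 each). Of the 5 dental epithelium markers reported here, 2 had a peak in replicate 1 against input and 0 had one in replicate 2. Over all protein-coding genes it was 25.0% and 35.8%. Of the 3 Schwann cell markers reported here, Sox10 had one in both, with 2.25% ± 0.195 (SD, n = 2). Tek was the single endothelial marker of 4, with 0.254% ± 0.19, and Ptprc the single immune marker of 4, with 0.247% ± 0.152 (SD, n = 2 each). The part of other cell types in the coverage of the 9 genes was not tested.

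The genes closest to Olig2 in their coverage over the 3 lists, which come from 2 libraries, were Vax1, Evx2 and Hoxb4, at distances of 5.64, 6.99 and 7.00 percentage points. Vax1 had 16.7% in replicate 1 against input, 14.6% in its IgG-called list and 10.9% in replicate 2. Evx2 had 15.0%, 11.1% and 10.4%, and Hoxb4 had 18.7%, 18.1% and 13.2%. All of them encode homeobox transcription factors. The SD of Olig2 over the replicates, 7.58 points, was larger than each of these distances, so which genes lie closest is uncertain.

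The 5 kb limit of the flanks fell among further peaks. Across it or in the last 1 kb inside it lay 8 peaks of replicate 1 against input, 7 against IgG and 5 of replicate 2, and in the first 1 kb outside lay 6, 10 and 1.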

How the data were processed

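H3K27me3 ChIP-seq was analysed from 3 deposited broad peak lists, made from 2 H3K27me3, 2 input and 1 IgG library. Per the study's methods, the authors aligned reads to GRCm38 with BWA, kept uniquely mapped reads, sorted with SAMtools and ran MACS2 2.1.1 for broad peaks with p below 0.005. Duplicate tags at a position were dropped and, per the file headers, the larger library was scaled down. MACS2 modelled fragments of 46 bp (replicate 1) and 71 bp (replicate 2), shorter than the tags, which narrows peaks. The deposited pileup is a signal, the scaled number of tags over a peak. The deposited fold enrichment is a ratio of pileup to control background with a pseudocount of 1, so it depends on depth. Deposited p-values are on a −log10 scale and were used only to filter peaks. The authors did not pool libraries.

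The members of the gene set and the other gene lists were chosen with earlier results of these data known. Named genes followed a rule of at most 4 per list with a peak in both replicates, by the highest mean coverage. Of the listed genes, 3 are not reported here and were left out of the counts, medians and plot of their lists. Gene models were from GENCODE M21 and sequences from GRCm38.p6, whose letters matched RefSeq at 665 of 665 promoters checked. Coverage was the share of bases in the gene body and 5 kb flanks under a peak. An overlap was at least 1 base. Repeats were the bases in lower case in the genome file. Wilson intervals are at 95%. No test was run, since the peaks chose the genes. Python 3.11.15, pandas 2.3.3 and numpy 2.4.6 were used, and interval counts were tested on simulated peaks. Alternatives changed the flank, peak threshold, control, overlap, promoter, joining distance, island definition and replicate, and 2 on repeats were added after seeing the data.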

Additional observations from a re-analysis of the deposited data

How the results depend on the processing

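With all peaks, 8 genes had a peak in both replicates, median coverage was 7.73%, 5 genes had a promoter peak in both, 11 replicate 1 peaks overlapped replicate 2, 36.8% of peaks touched an island and 4 genes lay in stretches of at least 10 kb. At a fold enrichment of 3 or higher, 0 genes had a peak in both replicates, median coverage was 0.199%, and promoter peaks, overlaps and stretches were 0, with no island share because replicate 2 had 0 such peaks at these genes. At a p-value of 0.001 or lower, the values were 1 gene, 0.804%, 0, 0 and 0, in the order above, with an island share of 37.5%. Counts at these stricter thresholds are given without the share over all genes or peaks, so they are not particular to the 9 genes. With the gene body alone, coverage was 16.6%, overlaps 4 and the island share 76.6%. With 1 kb flanks they were 11.1%, 6 and 53.1%, and with 20 kb flanks coverage was 3.90%. Overlaps were 7 when 50% of the shorter peak had to be shared, and 31 when a peak within 1 kb counted. Promoters of 2 kb and of 5 kb each gave 8 genes. Joining at 2 kb left 0 stretches, and leaving out peaks with a tandem repeat left 2. Leaving out a replicate gave 8 to 9 genes, coverage of 5.69% to 10.4%, 6 to 7 promoter genes, island shares of 31.2% to 42.4% and 4 to 5 stretches. Calling replicate 1 against IgG, and cutting replicate 2 to as many peaks as replicate 1, moved none of these 6 values by over 1.5 times or, for the shares, by over 1 SD, though IgG moved the coverage of Neurog1 from 6.59% to 11.0%. Of 81 coverage values of single genes under the alternatives, 30 moved by more than 1 SD. The 81 include the values without replicate 1 and without replicate 2, of which 0 of 9 moved each time. That outcome was fixed in advance, since with n = 2 each replicate lies within 1 SD of the mean. Beyond the values that follow from a definition, the cause of the moves was not tested. No paired analysis was possible because the results come from no test. Single peaks rested on few tags, which limits their positions.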
